A study of Saccharomyces cerevisiae with 16 samples.

Results

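The transcripts described here encode the motors of yeast microtubules and the proteins that ride on microtubule plus ends: the kinesins CIN8 (YEL061C), KIP1 (YBL063W), KIP2 (YPL155C), KIP3 (YGL216W) and KAR3 (YPR141C), the dynein heavy chain DYN1 (YKR054C), and BIM1 (YER016W), BIK1 (YCL029C), STU1 (YBL034C) and STU2 (YLR045C). They were chosen by name. All 10 had a row among the 6321 features of the table, each with 1 probe. Microarrays with 2 channels compared total RNA of Saccharomyces cerevisiae: each array set cells of a strain with the antimitotic drug benomyl against the same strain, labelled without mention of the drug. The wild type (WT) gave 6 arrays, at 30 s and at 2, 4, 10, 20 and 40 min. A strain deleted for YAP1 (DeltaYAP1 in the labels) and a strain deleted for PDR1 (DeltaPDR1) gave 5 arrays each, at 30 s and at 2, 4, 10 and 20 min, so that every strain and time had 1 array. The dose of benomyl, the rest of each genotype, and whether the cultures were synchronised are not given in the sources used here. Each strain's response is measured within that strain, so a transcript level that the deletion alone had changed would not show.

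Benomyl binds tubulin and depolymerises microtubules, and yeast cells that cannot build a spindle arrest before anaphase through the spindle checkpoint. Motors slide, shorten and position the microtubules of the spindle and of the cell cortex, while plus-end proteins set how fast the growing end adds or loses tubulin. Yap1 is a transcription factor of oxidative stress and drug defence, and Pdr1 one that switches on drug efflux pumps. The comparisons asked whether transcripts of this machinery change while the drug acts, and whether loss of either factor alters that.

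Values are read as log2 ratios, cells with benomyl over cells without it; neither the base nor the direction is stated in the sources used here. On this reading a value of 1 means 2-fold more transcript under benomyl, against the average of the array. In bulk RNA, fewer cells that make a transcript and less of it per cell cannot be told apart. Arrays carried values for 3450 (DeltaPDR1 at 2 min) to 6128 of 6338 probes, and the number of arrays limits the precision. FLR1, an exporter that Yap1 controls, reached 5.48 in WT and 6.15 in DeltaPDR1, while its highest value in DeltaYAP1 was 0.13. PDR5, an efflux pump that Pdr1 controls, reached 1.53 in WT and 2.24 in DeltaYAP1 and at most 0.29 in DeltaPDR1. The ratios of YAP1 and PDR1 themselves set a strain against itself and check no deletion.

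No member reached a 2-fold change on any array. The members had 124 of 160 possible values, and 0 of these were at 2-fold or more in either direction, against 1.33% of the 85240 values of all features. The value farthest from 0 was that of KAR3 in DeltaPDR1 at 10 min, -0.72. Of the member values, 20 (16.1%) lay outside the 5th to 95th percentile of their own array, where by definition about 10% of all values lie; most of those in WT came at 4 and 10 min. In WT, 0 members lay outside that band at 20 or 40 min, when the spread of all features was widest (SD 0.54 and 0.59 on those arrays, against 0.20 at 30 s).

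**Figure D1:**
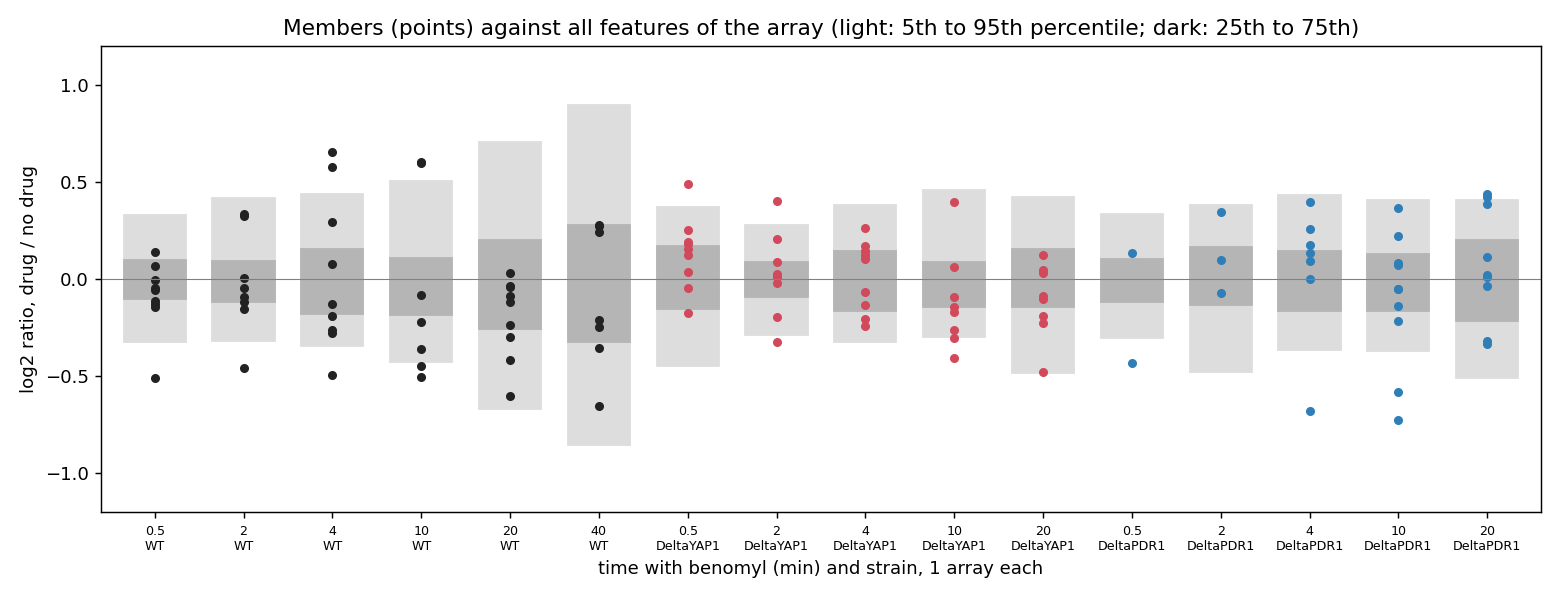
Each point is the log2 ratio (drug over no drug, vertical axis) of a motor or plus-end transcript on 1 array, ordered by strain and time in min; grey boxes span the 5th to 95th and 25th to 75th percentile of all features on that array. All points lie between -0.72 and 0.66, and the boxes of WT widen at 20 and 40 min while the points do not spread with them.

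Missing values limited what could be compared. WT had 49 of 60 possible member values, DeltaYAP1 44 of 50 and DeltaPDR1 31 of 50. KAR3 was measured only in DeltaPDR1, at 4, 10 and 20 min; 2.06% of all features had 3 or fewer values. The reason for the gaps was not tested. BIM1 and STU2 had a value on all 16 arrays, BIK1 on 15, KIP3 and DYN1 on 14, KIP2 on 13, STU1 on 12, CIN8 on 11 and KIP1 on 10.

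A linear model with strain and time terms (limma) took the arrays at 2, 4, 10 and 20 min, present in all strains, as repeats of each other. Only transcripts with at least 3 of these 4 values in each strain were tested, which were 6 of the 10 members: KIP2, KIP3, DYN1, BIM1, BIK1 and STU2. Their SE comes from the spread left after these terms on those of the 12 arrays with a value, and times of 1 course are not biological replicates. A call required a Benjamini-Hochberg adjusted p under 0.05 over all features tested. Intervals are 95% intervals of the same fit.

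In this model 0 of the 6 tested members passed in the WT response, where 4.16% of the 4324 features were called. At an unadjusted p under 0.05 there were 3 members (DYN1, BIK1 and KIP2), and 19.8% of all features. The same held in the other strains: 0 of 6 in DeltaYAP1, with 0.116% of features called, and 0 of 6 in DeltaPDR1, with 5.5% called. Each of them had 1 member at an unadjusted p under 0.05, where 9.62% and 23.8% of all features were. Averaged over the 3 strains, 0 of 6 passed against 9.44% of features, with 3 members and 26.8% of all features at an unadjusted p under 0.05. That average draws on the 12 arrays, but KIP2, KIP3 and DYN1 had no DeltaPDR1 value at 2 min. The median of the tested members was -0.06 in WT, -0.07 in DeltaYAP1 and 0.09 in DeltaPDR1, beside medians of -0.04, -0.02 and -0.01 over all features. The intervals lay inside 2-fold for every one of these 4 responses and 6 members. In WT they reached down to -0.55 for KIP2 and up to 0.58 for DYN1.

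**Figure D2:**
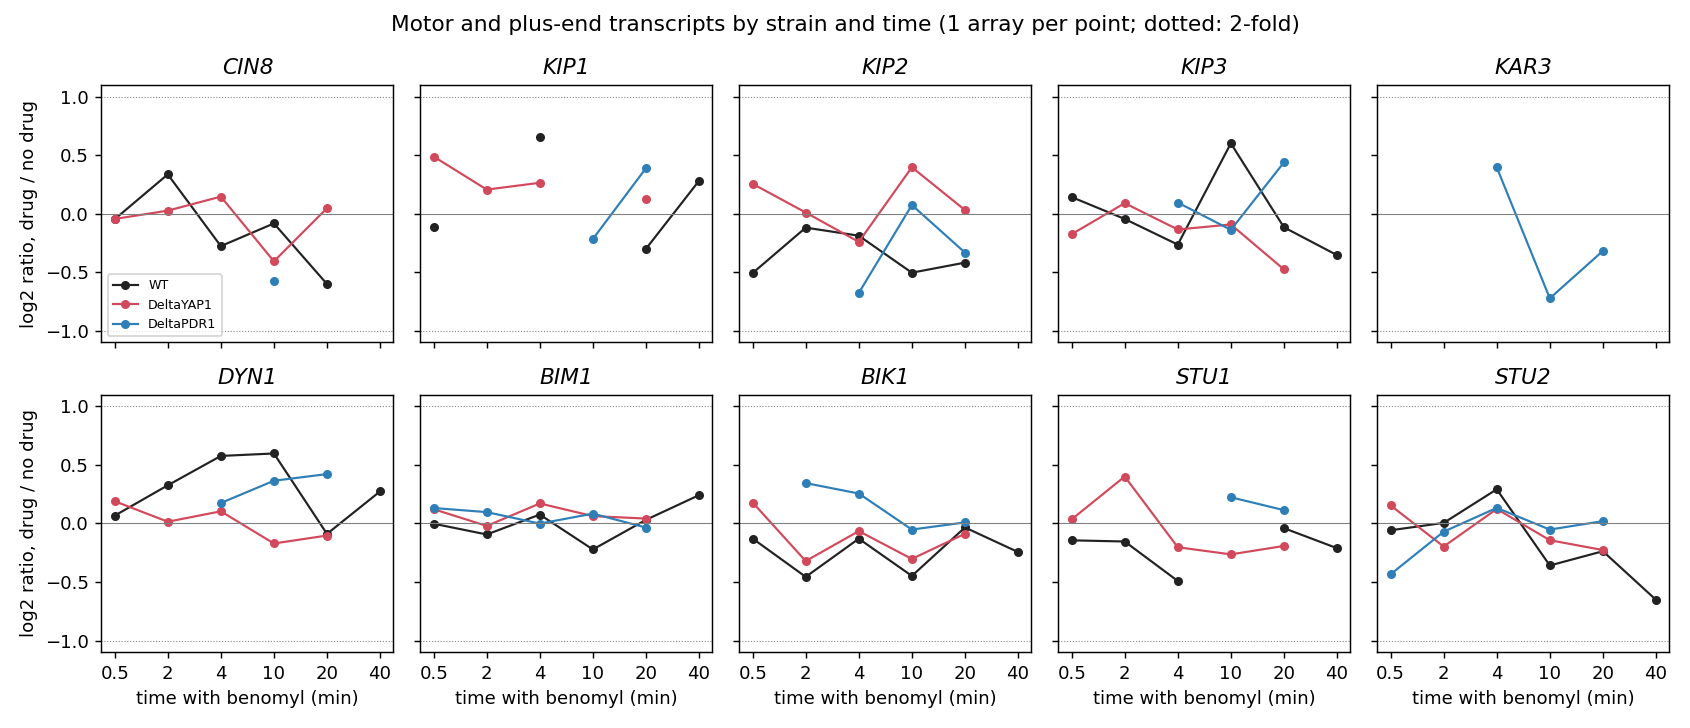
Log2 ratio (drug over no drug, vertical axis) of each of the 10 transcripts at each time in min (horizontal axis, evenly spaced steps) in WT (black), DeltaYAP1 (red) and DeltaPDR1 (blue), 1 array per point with no error bar; lines break where a value is missing and dotted lines mark 2-fold. KIP2, BIK1 and STU1 are below 0 on every WT array with a value, BIM1 stays close to 0, and KAR3 has 3 points. How many features at large keep 1 sign in WT was not counted.

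Among the kinesins, CIN8 and KIP1 encode bipolar motors that push the spindle poles apart. In order of time from 30 s to 20 min, CIN8 in WT was measured at -0.05, 0.34, -0.28, -0.08 and -0.60. In DeltaYAP1 it ran from -0.41 at 10 min to 0.15 at 4 min, and DeltaPDR1 gave 1 value, -0.58 at 10 min. The strains overlapped, and the order of WT and DeltaYAP1 changed from time to time.

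KIP1 had its highest value in WT at 4 min, 0.66, and its lowest in WT at 20 min, -0.30. In DeltaYAP1 all 4 of its values were above 0, between 0.12 and 0.49, the highest at 30 s. These lay inside the WT range. Neither bipolar kinesin had enough values in DeltaPDR1 for the model of all strains. In a fit of the WT and DeltaYAP1 arrays alone, added after the values had been seen, CIN8 averaged -0.16 ± 0.13 in WT (SE, adjusted p = 0.50) and KIP1 0.18 ± 0.18 (SE, adjusted p = 0.60). KIP1 entered that WT mean with 2 arrays.

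KIP2 encodes the kinesin that carries Bik1 and dynein toward the plus ends of cytoplasmic microtubules and lengthens them. From 30 s to 20 min the WT values were -0.51, -0.12, -0.19, -0.50 and -0.42, all 5 below 0. The array at 30 s was as low as the one at 10 min. The limma slope over the WT course was -0.01 ± 0.05 log2 per doubling of time. Without the 30 s array it was -0.11 ± 0.07 (adjusted p = 0.41). The size of the slope moved with that 1 array, but neither slope passed, so a build-up with time was not shown. In DeltaYAP1 KIP2 was at 0.26, 0.01, -0.24, 0.40 and 0.03 over the same 5 times. The last 3 arrays of DeltaPDR1 gave -0.68, the lowest value of KIP2, then 0.07 and -0.33. How many features at large keep 1 sign over all arrays of a strain was not counted. That limit holds for KIP2, for KIP1 above and for BIK1 and STU1 below. The median of all features was itself slightly below 0 on most WT arrays, down to -0.05 at 4 min.

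At 10 and 20 min KIP2 averaged -0.46 ± 0.13 in WT (SE, n = 2 arrays), 27.4% less transcript, and came closest of all members to a call (adjusted p = 0.055, where 7.77% of features were called). The WT mean over 2 to 20 min was -0.31 ± 0.11 (adjusted p = 0.15); the fitted mean was -0.12 without the WT array at 10 min (adjusted p = 0.63) and -0.46 without that at 4 min (adjusted p = 0.076). No alternative setting tried brought KIP2 past the threshold; at 10 and 20 min its adjusted p ran from 0.050 to 0.25 over 16 alternatives in limma, the lower end just above 0.05.

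KIP3 encodes a motor that walks to plus ends and shortens microtubules there. It was at 0.60 in WT at 10 min, well above its other 5 WT values, which ran from -0.35 at 40 min to 0.14 at 30 s. DeltaYAP1 values lay between -0.48 and 0.09 and those of DeltaPDR1 between -0.14 and 0.44. Its WT mean over 2 to 20 min was 0.04 ± 0.14 (SE, n = 4 arrays), with an interval from -0.26 to 0.35, the widest of the tested members; without the array at 10 min it was -0.19 (adjusted p = 0.52). KAR3, a minus-end-directed motor of spindle and nuclear fusion, had 0.40, -0.72 and -0.32 on the last 3 arrays of DeltaPDR1. These 3 values changed sign and had no repeat in another strain.

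DYN1 encodes the heavy chain of dynein, the motor that pulls the spindle into the bud neck from the cell cortex. Its 6 WT values, from 30 s to 40 min, were 0.07, 0.33, 0.58, 0.60, -0.09 and 0.27. In DeltaPDR1 the last 3 arrays gave 0.18, 0.37 and 0.42. In DeltaYAP1 they were 0.19, 0.02, 0.10, -0.17 and -0.10 from 30 s to 20 min. DYN1 was thus above 0 on 5 of 6 arrays in WT, 3 of 3 in DeltaPDR1 and 3 of 5 in DeltaYAP1. All DeltaYAP1 values lay within 0.19 of 0, as did 0.07 and -0.09 in WT and 0.18 in DeltaPDR1. The share of all features with such a pattern was not counted.

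The WT mean of DYN1 over 2 to 20 min was 0.35 ± 0.10 (SE, n = 4 arrays; adjusted p = 0.090), or 27.7% more transcript. It was 0.25 without the WT array at 10 min (adjusted p = 0.37) and 0.51 without that at 20 min (adjusted p = 0.053). At 10 and 20 min the WT mean was 0.25 ± 0.15 (adjusted p = 0.32). That late mean was -0.09 without the array at 10 min and 0.60 without that at 20 min. The DeltaPDR1 mean over 2 to 20 min was 0.33 ± 0.13 (adjusted p = 0.15), or 0.15 without its array at 20 min and 0.49 without that at 4 min. The DeltaYAP1 mean was -0.04 ± 0.10 (adjusted p = 0.94). Averaged over the strains it was 0.21 ± 0.07 (adjusted p = 0.064), the smallest adjusted p of the members in that comparison. This mean passed in 3 of 18 alternatives. It passed with array medians subtracted (adjusted p = 0.046) and without the WT array at 20 min (adjusted p = 0.019). The other pass was without the DeltaPDR1 array at 4 min (adjusted p = 0.038). Without the DeltaPDR1 array at 20 min the mean was 0.15 (adjusted p = 0.15), and over all alternatives the adjusted p ran from 0.019 to 0.18.

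Among the plus-end proteins, BIM1, the yeast member of the EB family that tracks growing ends and recruits other proteins to them, lay between -0.22 and 0.24 over all 16 arrays. Its SD over arrays was 0.11, at percentile 1.9 of the 5457 features with at least 10 values, whose median SD was 0.22; the other members with that many values ranged from 0.24 (BIK1) to 0.32 (KIP2). The WT mean of BIM1 was -0.05 ± 0.07 (SE, n = 4 arrays), with an interval from -0.21 to 0.10. Averaged over the strains the interval ran from -0.07 to 0.11, that is from 0.95-fold to 1.08-fold.

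BIK1 encodes the CLIP-family protein that Kip2 carries and that couples dynein to plus ends. Its 6 WT values from 30 s to 40 min were -0.13, -0.46, -0.13, -0.45, -0.03 and -0.24, all below 0. In DeltaYAP1 it stood at 0.18 at 30 s and then at -0.32, -0.07, -0.30 and -0.09, with the same low times, 2 and 10 min, as WT. From 2 min on DeltaPDR1 gave 0.35, 0.26, -0.05 and 0.01. The WT mean was -0.27 ± 0.08 (SE, n = 4 arrays; adjusted p = 0.099), that of DeltaYAP1 -0.19 ± 0.08 (adjusted p = 0.47) and that of DeltaPDR1 0.14 ± 0.08 (adjusted p = 0.34). The DeltaPDR1 mean was 0.02 without its array at 2 min, which had values for 54.4% of features, and 0.24 without that at 20 min; the DeltaYAP1 mean was -0.12 with the 30 s arrays included.

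STU2, a tubulin polymerase of the ch-TOG family that is essential for the spindle, had WT values of -0.06, 0.01, 0.29, -0.36, -0.24 and -0.65 from 30 s to 40 min. DeltaYAP1 lay between -0.23 and 0.15 and DeltaPDR1 between -0.43, at 30 s, and 0.13. In all 3 strains the value at 4 min was above those at 2, 10 and 20 min. At 10 and 20 min the WT mean was -0.30 ± 0.12 (SE, n = 2 arrays; adjusted p = 0.15). STU1, the CLASP-family protein that stabilises spindle microtubules, was below 0 on all 5 WT arrays with a value, from -0.49 at 4 min to -0.04 at 20 min. It ran from -0.26 to 0.40 in DeltaYAP1, and its 2 values in DeltaPDR1 were 0.22 and 0.11. In the fit of WT and DeltaYAP1 alone STU1 averaged -0.29 ± 0.12 in WT (SE, adjusted p = 0.21), over 3 WT arrays.

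Timing was asked in 3 further ways. At 10 and 20 min in WT 0 of 6 members passed and 2, KIP2 and STU2, had an unadjusted p under 0.05, as did 23% of all features. The late arrays (10 and 20 min) minus the early ones (2 and 4 min), averaged over the strains, gave 0 of 6 calls against 1.69% of features; STU2 had the largest difference, -0.21 ± 0.10 (adjusted p = 0.37), and was the only member at an unadjusted p under 0.05, against 13.1% of all features. The slope over the WT course, tested for 5248 features with at least 5 of 6 values, took in 8 members, STU1 and CIN8 included. None passed and 0.0953% of features were called in limma; 0 members and 20.7% of features had an unadjusted p under 0.05. Slopes ran from -0.10 ± 0.06 log2 per doubling of time for CIN8 and -0.09 ± 0.05 for STU2 to 0.02 ± 0.04 for BIM1.

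**Figure D3:**
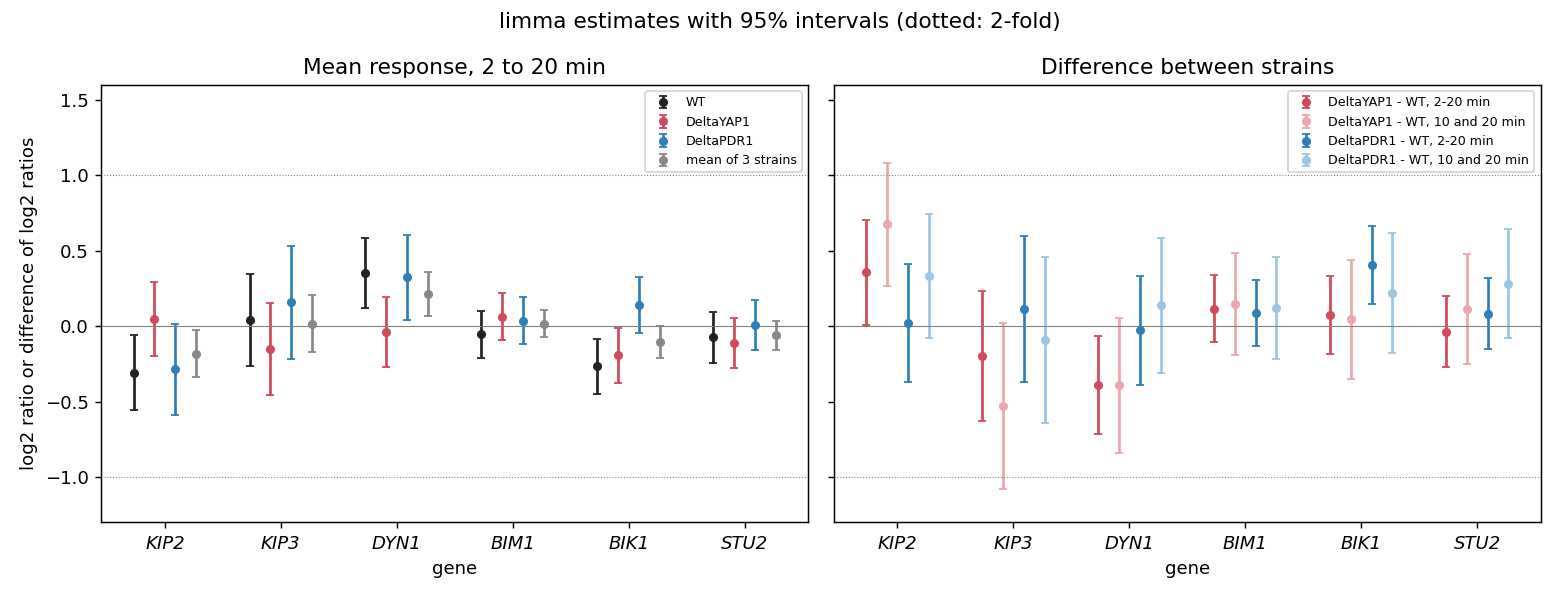
Points are limma estimates and bars their 95% intervals for the 6 tested transcripts, as mean log2 ratio over 2 to 20 min per strain and over the strains (left) and as differences of mean log2 ratio between a deletion strain and WT over 2 to 20 min or at 10 and 20 min (right); dotted lines mark 2-fold. All intervals on the left lie inside 2-fold, and on the right those of KIP2 and KIP3 for DeltaYAP1 minus WT at 10 and 20 min reach past it.

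The differences between strains asked whether Yap1 or Pdr1 alters these responses. For DeltaYAP1 minus WT over 2 to 20 min, 0 of 6 members passed, with 0.139% of features called and 2 members, DYN1 and KIP2, at an unadjusted p under 0.05, against 8.63% of all features. DYN1 was lower in DeltaYAP1 by -0.39 ± 0.15 (SE, n = 4 arrays per strain, adjusted p = 0.48), with an interval from -0.72 to -0.07. Without the WT array at 10 min the difference was -0.29 (adjusted p = 0.77), and without that at 20 min -0.55 (adjusted p = 0.24). DYN1 was lower at all 4 shared times, by 0.77 at 10 min and by 0.01 at 20 min. BIM1 was higher at all 4 times, by at most 0.29. Of the 7 members with values at all 4 times in both strains, these 2 kept 1 sign, while 20.4% of all such features did.

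KIP2 was higher in DeltaYAP1 than in WT at 3 of 4 times, by 0.90 at 10 min. Over 2 to 20 min the difference was 0.36 ± 0.16 (adjusted p = 0.56), or 0.17 without the WT array at 10 min (adjusted p = 0.85). At 10 and 20 min it was 0.68 ± 0.19 (SE, n = 2 arrays per strain; adjusted p = 0.15), with an interval from 0.27 to 1.08, the largest difference of any member; without the DeltaYAP1 array at 10 min it was 0.49 (adjusted p = 0.79). In that comparison 0 of 6 members passed, 1.43% of features were called, and KIP2 was the 1 member at an unadjusted p under 0.05, against 8.9% of features. KIP3 differed by -0.53 ± 0.25 at these times (adjusted p = 0.60), by -0.17 without its high WT array at 10 min (adjusted p = 0.92) and by -0.885 without that at 20 min (adjusted p = 0.21). These 2 intervals were the exceptions among 66: the other 64 intervals of the responses and differences lay inside 2-fold.

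For DeltaPDR1 minus WT over 2 to 20 min, 0 of 6 members and 0% of features passed in limma, with 14.3% of features and 1 member, BIK1, at an unadjusted p under 0.05. BIK1 was higher in DeltaPDR1 by 0.41 ± 0.12 (SE, n = 4 arrays per strain; adjusted p = 0.18), with an interval from 0.15 to 0.67. Its differences at these times were 0.80, 0.39, 0.40 and 0.04, so it was higher at 4 of 4 times. BIK1 was the 1 of 3 members with all 4 pairs that kept its sign, against 19.3% of such features. The sparse DeltaPDR1 array at 2 min gave the largest of these differences; without it BIK1 differed by 0.29 ± 0.11 (adjusted p = 0.29). At 10 and 20 min 0 of 6 members passed, 0.463% of features were called, and 0 members and 15.1% of features had an unadjusted p under 0.05. BIK1 differed by 0.22 ± 0.18 at these times (adjusted p = 0.60), by 0.01 without the WT array at 10 min and by 0.43 without that at 20 min.

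Between the deletion strains over 2 to 20 min, 0 of 6 members passed against 0.37% of features. BIK1 was lower in DeltaYAP1 than in DeltaPDR1 by -0.33 ± 0.12 (adjusted p = 0.27) and was the only member at an unadjusted p under 0.05, against 13.2% of all features. Without the DeltaPDR1 array at 2 min the BIK1 difference was -0.21 (adjusted p = 0.37). DYN1 differed by -0.36 ± 0.17 (adjusted p = 0.38) and KIP2 by 0.34 ± 0.18 (adjusted p = 0.44); these were -0.19 for DYN1 without the DeltaPDR1 array at 20 min and 0.18 for KIP2 without that at 4 min. These comparisons share arrays with those against WT and are not independent of them.

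Partners of the motors and plus-end proteins were looked up in 4 lists with 46 genes, of which 42 had a row and 30 were tested. Of the 30, 1 was called in the WT response, 2 in WT at 10 and 20 min (6.67%), 1 in DeltaPDR1 and 3 in the mean of the strains (10%), shares near or below those of all features given above. In limma 0 were called in the DeltaYAP1 response, in late minus early, in any of the 5 differences between strains or, of 36 tested, in the WT slope. At an unadjusted p under 0.05 there were 3 list genes in the DeltaYAP1 response, 3 in late minus early, from 2 to 7 in the differences and 3 in the slope. The shares of all features at that level were 9.62%, 13.1%, from 8.63% to 15.1%, and 20.7%. The largest of these differences were DeltaPDR1 minus WT over 2 to 20 min (6 of 30, 14.3% of all features) and at 10 and 20 min (7 of 30, 15.1%). Comparisons with calls had 8 of 30 in the WT response (19.8% of all features) and 3 in DeltaPDR1 (23.8%). There were 9 of 30 in the mean of the strains (26.8%) and 9 in WT at 10 and 20 min (23%).

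Among the partners of Kar3 and dynein, 1 of 10 tested genes fell in WT: DYN3, which encodes a light intermediate chain of dynein. From 2 to 20 min it was at -0.39, -0.24, -0.39 and -0.52, after 0.07 at 30 s and before 0.18 at 40 min. The WT mean of DYN3 over 2 to 20 min was -0.38 ± 0.08 (SE, n = 4 arrays; adjusted p = 0.025), opposite in sign to that of DYN1. The call was lost in 6 of 19 alternatives, among them each fit that left out 1 of the 4 WT arrays, with adjusted p up to 0.21. DYN3 also fell in WT at 10 and 20 min (-0.46 ± 0.13, adjusted p = 0.047), a call lost in 11 of 16 alternatives. DYN2, which encodes a light chain of dynein, had a WT mean over 2 to 20 min with the sign of DYN1. It was 0.34 ± 0.12 (adjusted p = 0.16), with no value at 10 min. JNM1, a dynactin subunit, fell in the mean of the strains (-0.22 ± 0.06, adjusted p = 0.034), a call lost in 12 of 18 alternatives. CIK1, a partner of Kar3, averaged -0.39 ± 0.12 in WT at 10 and 20 min (adjusted p = 0.083). NUF2, of the outer kinetochore, was nearer the threshold in the same comparison (-0.43 ± 0.12, adjusted p = 0.0503). VIK1, the other partner of Kar3 in the list, had too few DeltaPDR1 values to be tested. In WT it was at 0.26 and 0.82 at 10 and 20 min, above 0 where CIK1 was below. CIK1, VIK1, DYN2 and NUF2 were named after their values were seen.

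In the DASH complex, a ring that couples kinetochores to microtubule ends, 1 of 5 tested genes fell in WT at 10 and 20 min. DAM1 was at -0.57 and -0.58 there, against 0.27 and -0.02 at 2 and 4 min and -0.13 at 40 min. Its mean of -0.57 ± 0.12 (SE, n = 2 arrays; adjusted p = 0.0097) is 32.8% less transcript and held in 15 of 17 alternatives; it was lost with scaled arrays (adjusted p = 0.076) and without the WT array at 20 min (adjusted p = 0.11). At these times DAM1 lay between -0.21 and 0.06 in the deletion strains.

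Of 9 tested genes of the outer kinetochore and spindle pole body, SPC42, a core protein of the pole body, fell in the mean of the strains (-0.17 ± 0.04, adjusted p = 0.028) and SPC25, a subunit of the Ndc80 complex, rose (0.21 ± 0.05, adjusted p = 0.018). The SPC42 call was lost in 9 of 20 alternatives. The SPC25 call was lost in 2 of 19, without the WT array at 2 min (adjusted p = 0.086) and with the 30 s arrays included (adjusted p = 0.21). SPC25 also rose in DeltaPDR1 (0.36 ± 0.09, adjusted p = 0.045), a call lost in 14 of 19 alternatives. In WT at 10 and 20 min the median of these 9 genes was -0.30, that of the 6 motor and plus-end genes -0.17 and that of all features -0.04. Of the 9, 5 had an unadjusted p under 0.05 there, as did 23% of all features, and 0 were called. SPC98, of the same list, had too few values to be tested. It was at -1.15 and -1.07 in WT at 20 and 40 min and at -1.93 in DeltaYAP1 at 20 min. In DeltaPDR1 SPC98 was at 0.49, 0.47 and 0.41 from 4 to 20 min. SPC97, tested but not called, was at -0.74 and -0.83 in WT at 20 and 40 min. At 20 min SPC97 was at -0.90 in DeltaYAP1 and 0.17 in DeltaPDR1. Of the 6 tested genes of the spindle midzone, the passenger complex and Bim1's cortical partners, 0 were called in any comparison. MYO2, the myosin that moves cargo into the bud, was at -0.24 in WT at 20 min and had no value at 10 min. SLK19, a midzone protein, averaged -0.18 ± 0.20 in WT at 10 and 20 min (adjusted p = 0.65). Its WT values there were 0.40 and -0.76, and -1.01 at 40 min. ASE1, of the same list, had too few WT values to be tested and was at 0.41 at 20 min and 1.12 at 40 min.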

How the data were processed

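The authors deposited a table of log ratios, read here as log2 of channel 1 (strain with drug, per the labels) over channel 2 (the strain). Base, direction, dye order, background correction and normalisation are not given in the sources used here; with natural logarithms folds would be larger, and with the channels reversed all signs would flip. The arrays come centred, with means over features from -0.0014 to 0.0005. A dye bias of a gene cannot be told apart from a response that is the same at all times.

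Of 6338 probes 5628 had 1 gene symbol, 0 had several and the rest none; symbols were updated by gene ID through RefSeq; averaging duplicate probes gave 6321 features. The model with strain and time terms, a model with strain-by-phase terms and the WT slope were fitted with limma 3.58.1 in R 4.3.3 (lmFit, eBayes, two-sided) and tested on simulated data. Arrays were grouped by strain from the labels. The members and lists were chosen with earlier results of these data known. All members were named, list genes where called or, in a list without calls, the 2 lowest in p in WT at 10 and 20 min. CIK1, VIK1, DYN2, NUF2, SPC97, SPC98 and ASE1 were named outside this rule, after their values were seen. Genes with a pattern like KIP2, the member the rule picks, were not sought because it has 13 values and 14 were required. Alternatives changed centring, scaling, missing-value filter, probe-order trend, shrinkage, time block and use of the 30 s arrays, or left out 1 array. No sequences or coordinates are given, since no build is named.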

Additional observations from a re-analysis of the deposited data

How the results depend on the processing

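The count of members called was 0 in all 12 comparisons, and stayed 0 under every alternative of 7 of them: the WT response, DeltaYAP1 minus WT over 2 to 20 min, the 4 comparisons that use the phases, and the WT slope. It was 1 in the mean of the strains with array medians subtracted, and from 0 to 1 there when 1 array was left out; each time the member was DYN1. With the 30 s array of each strain subtracted it was 1 in the DeltaYAP1 response, the DeltaPDR1 response, DeltaPDR1 minus WT and DeltaYAP1 minus DeltaPDR1, each time STU2 (-0.26, 0.44, 0.46 and -0.71), of 2 members that could be tested. There 1 array at 30 s enters all 4 values of a strain, and the number of all features called grew to between 388 and 1143 in the 7 comparisons over 2 to 20 min. Of 1287 member estimates under alternatives, 72 had another sign than reported and 7 passed the threshold, all named above (3 of DYN1, 4 of STU2). Of those that did not pass, 1205 moved by less than 1 SE and 75 by more.

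The number of all features called moved widely. Over the alternatives it ran from 37 to 512 in the WT response (180 as reported), from 0 to 1090 in DeltaYAP1 (5), from 55 to 863 in DeltaPDR1 (238), from 225 to 1142 in the mean (408), from 0 to 446 in DeltaYAP1 minus WT (6), from 0 to 388 in DeltaPDR1 minus WT (0), from 0 to 1143 between the deletion strains (16), from 86 to 396 in WT at 10 and 20 min (336), from 47 to 151 in late minus early (73), from 28 to 89 and from 2 to 82 in the differences from WT at 10 and 20 min (62 and 20), and from 0 to 662 in the slope (5). The base and direction of the ratios, the absent spot intensities and 1 array per strain and time limit every value. The 3 members with few values in DeltaPDR1 or WT (CIN8, KIP1 and STU1) were not called in the fit of WT and DeltaYAP1 alone either.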
